A study of Mus musculus with 12 samples.

Results

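A set of 34 genes that mark microglia, the resident macrophages of the brain, or their lysosomal and cell-surface machinery was followed in the hippocampus of mice that carry a DISC1 mutation, mice that received THC, both or neither. The members were named by symbol and found through the RefSeq transcript identifiers of a table of 23382 genes. Of 34 genes listed, 33 had a row, and all 33 passed the filter on low counts that left 15802 genes for testing. Cd68, which encodes a lysosomal membrane glycoprotein, was not analysed here.

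The study compared 4 groups of 3 libraries of total hippocampal RNA, depleted of ribosomal RNA and read as paired ends. All mice were on a C57BL/6 background. The groups were DISC1 mutant mice given THC, DISC1 mutant mice given vehicle, control mice given THC and control mice given vehicle. The labels call the mutant line aDN-DISC1, and the series title refers to exposure in adolescence, to a genetic vulnerability of astrocytes and to memory in adulthood. THC is the main psychoactive compound of cannabis, while DISC1 encodes a scaffold protein of neural cells that has been associated with schizophrenia and mood disorders. The promoter that drives the mutant protein, what the control mice carry, and the dose, age, sex and litter are not given in the sources used here. The design text gives 3 per group without saying whether these were separate mice. Each p-value therefore sets a group difference against the spread between these libraries. Whether that is the spread between mice is not known.

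Microglia depend on the CSF1 receptor for survival, and the transcription factors PU.1 (Spi1), IRF8 and SALL1 set their identity. They sense nucleotides through P2Y12, the neuronal chemokine fractalkine through CX3CR1, and lipids and cell debris through TREM2, which signals through the adaptor TYROBP. Engulfed material is broken down in lysosomes, where cathepsins cleave proteins. In whole tissue, a lower level of these transcripts can mean fewer microglia or less RNA per cell, and the measurements cannot tell these apart.

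PU.1 binds GGAA cores, and a short form of its site, AGGAAGT, was searched on both strands of the RefSeq promoters of GRCm38.p6, each reaching from 250 bases before to 50 bases after a gene's start. The table held 32 promoters of 27 of the 34 genes. The site was in 9 of these 32 promoters, or 28.1%, and in 9.35% of all 32851 promoters. These 9 belonged to 8 genes, namely Cd53, Ctss, Fcgr1, Fcrls, Inpp5d, P2ry12, Ptprc and Sall1. The listed promoters of Ptprc overlap and share a site, which was counted for each of them. Not every listed promoter of Sall1 held the site. The E-box core CACGTG, the centre of the site of the lysosomal regulator TFEB, was in 2 of the 32 promoters (P2ry12 and Siglech), or 6.25%, and in 7.15% of all promoters. The letters of these motifs cannot overlap on either strand, and a match describes letters in a window, not binding. The stretches below run from 120 bases before to 20 bases after the start, 5′ to 3′ on the strand of the gene. They are shown because Ctsz had the smallest p between genotypes, Inpp5d the smallest p between treatments, and Ctss the highest level per transcript length. Capitals mark AGGAAGT or its reverse complement.
Ctsz (chr2:174439020-174439159, minus strand): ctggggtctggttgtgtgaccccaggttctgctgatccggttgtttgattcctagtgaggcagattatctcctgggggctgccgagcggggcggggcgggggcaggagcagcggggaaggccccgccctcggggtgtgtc
Ctss (chr3:95526666-95526805, plus strand): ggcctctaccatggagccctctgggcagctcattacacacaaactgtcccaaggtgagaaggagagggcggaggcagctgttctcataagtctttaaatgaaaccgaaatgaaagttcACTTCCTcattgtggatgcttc
Inpp5d (chr1:87620192-87620331, plus strand): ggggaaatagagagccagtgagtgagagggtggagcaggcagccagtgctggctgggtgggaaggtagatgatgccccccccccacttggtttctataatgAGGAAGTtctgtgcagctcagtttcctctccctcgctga
The Ctsz promoter held neither motif. In Ctss the site lay on the opposite strand and began 2 bases before the start. Inpp5d held a pair of sites, beginning 19 bases before the start and 31 bases after it, the last of them outside the stretch printed.

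Total expected counts ranged from 33165903 to 41389957 per library, and levels are given as CPM, counts scaled to a common library size of 1000000 over the tested genes with TMM factors. Libraries differed in the level of marker genes of tissue around the hippocampus, and the cause of this was not tested. The summed level of 16 genes of choroid plexus epithelium, the tissue that secretes cerebrospinal fluid, was 10660, 338 and 5050 CPM in mutant THC libraries 1 to 3, 6176, 10370 and 17080 in mutant vehicle, 342, 9015 and 335 in control THC and 389.6, 330.3 and 413 in control vehicle. Thus 5 of 6 mutant libraries and 1 of 6 control libraries were high. The summed level of 11 striatal neuron genes was 5394 CPM in mutant THC 3 and 659 CPM in mutant vehicle 3, against 194 to 225 CPM in the other 10 libraries. Vehicle libraries carry the label numbers 6 to 11 and THC libraries 1 to 5 and 12, which means that an effect of that numbering cannot be told apart from one of THC.

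Compared per kilobase of transcript, Ctss, which encodes the lysosomal cysteine protease cathepsin S, had the highest level of the 32 members with a usable transcript length. Its level was 53.9 ± 5.46 CPM per kilobase (SD over 12 libraries), at the 91.4th percentile of the tested genes. Csf1r followed at 29.7 ± 1.80 CPM per kilobase, and its highest library, 32.4, lay below the lowest Ctss library, 45.9. Ctsz, a lysosomal carboxypeptidase also called cathepsin Z or X, came next at 26.0 ± 4.26, then Tyrobp at 25.7 ± 2.73, P2ry12 at 19.4 ± 1.37 and Cx3cr1 at 15.4 ± 1.27 CPM per kilobase. From Csf1r down to Cd53 each gene overlapped the next in its range over 12 libraries. Only 3 steps of the order did not overlap, those between Ctss and Csf1r, between Cd53 (5.35 ± 0.76) and Inpp5d (3.25 ± 0.39), and between Inpp5d and Sall1 (2.17 ± 0.11 CPM per kilobase). The lowest members were Cd33 at 0.73 ± 0.092 and C3ar1 at 0.65 ± 0.11 CPM per kilobase. Olfml3 was left out of this order because its annotated transcript was longer than its gene.

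**Figure D1:**
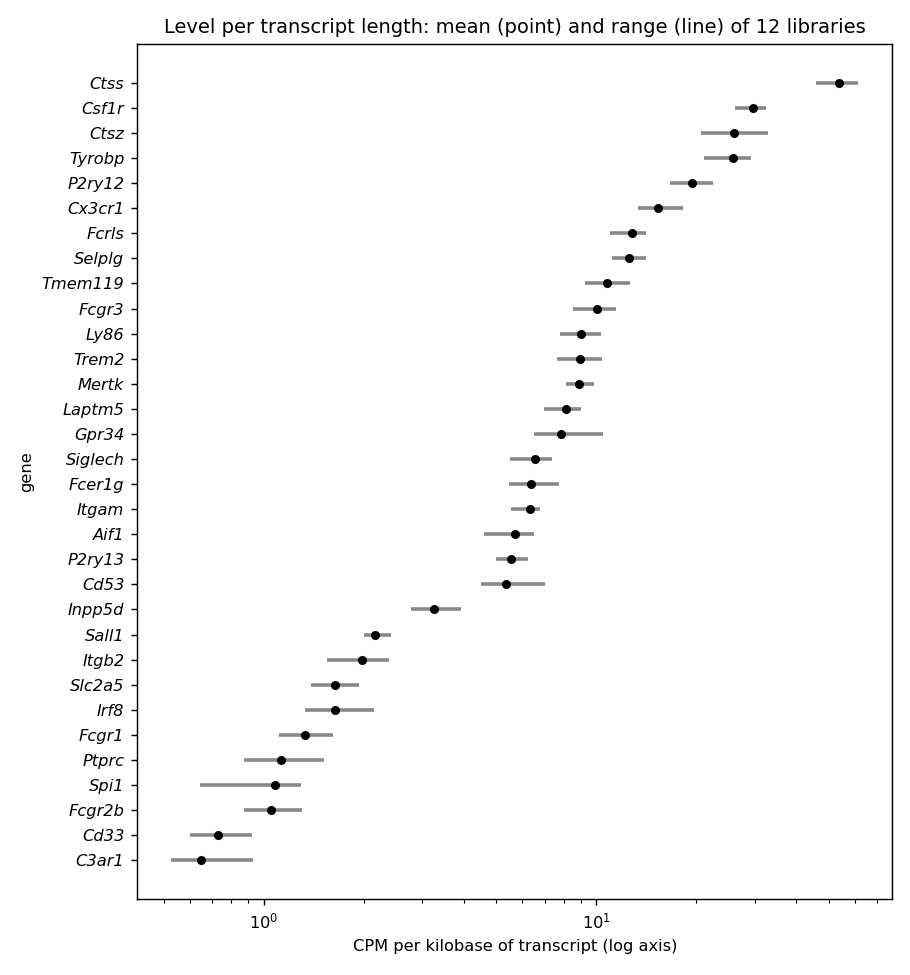
Level of 32 microglial genes per transcript length, on a log axis in CPM per kilobase, with the mean of 12 libraries as a point and their range as a line. Ctss stands alone at the top with 53.9 and C3ar1 is lowest with 0.65 CPM per kilobase.

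A member's highest library was between 1.21 and 2.01 times its lowest, with a median of 1.37 times, against a median of 1.45 times over all tested genes. The coefficient of variation had a median of 10.12% for the members and 10.97% for all tested genes. Many members lay on the same side of their mean within a library. In mutant THC libraries 1 to 3, 28, 17 and 28 of the 33 members lay above their own 12-library mean, in mutant vehicle 27, 22 and 19, in control THC 6, 1 and 14, and in control vehicle 26, 14 and 3. The share of all tested genes above their own mean stayed between 47.9% and 52.8% in every library. Control vehicle 1 resembled the mutant libraries in this count, and control vehicle 3 and control THC 2 had the fewest members above the mean. Their summed level showed the same libraries, with 728, 686 and 732 CPM in mutant THC, 728, 697 and 711 in mutant vehicle, 657, 618 and 668 in control THC and 738, 667 and 611 in control vehicle. Groups without overlap were counted over 33 members and 15802 genes. Control THC lay below control vehicle for 3 members, beside 1275 genes, and above for 0, beside 1311. Mutant THC lay above mutant vehicle for 3, beside 643, and below for 1, beside 695. It lay above control THC for 10, beside 763, and below for 0, beside 901. Mutant vehicle lay above control vehicle for 4, beside 2410, and below for 0, beside 2013.

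**Figure D2:**
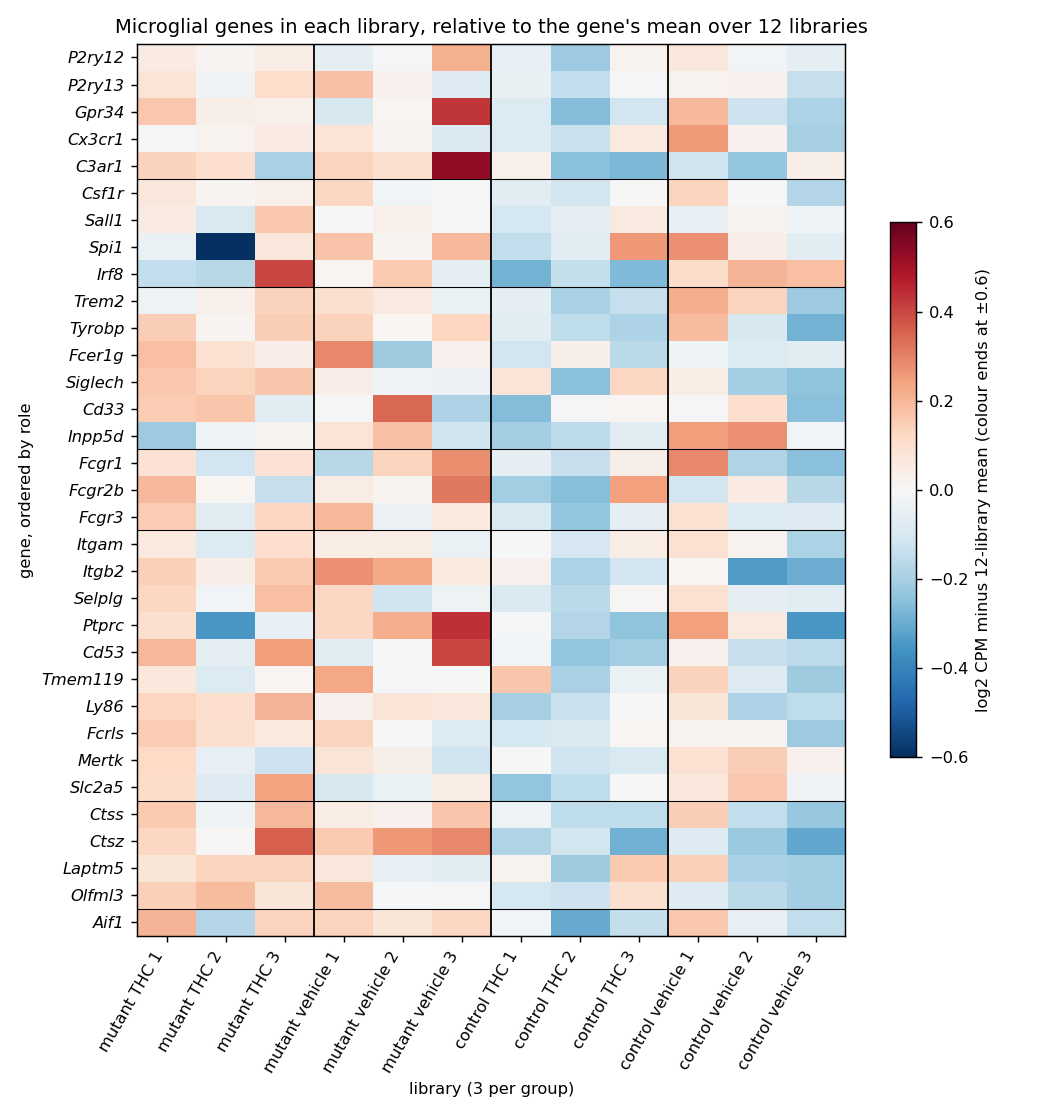
Heat map of 33 microglial genes in 12 libraries, where colour is the log2 CPM minus the gene's own mean over 12 libraries and horizontal lines separate roles. Control vehicle 1, with 26 of 33 genes above their mean, looks like the mutant columns, while control THC 2 has 1 of 33 and control vehicle 3 has 3 of 33.

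Among receptors for nucleotides and chemokines, P2ry12, the ADP receptor that directs microglial processes towards injury, had 45.1, 44.1 and 45 CPM in mutant THC libraries 1 to 3, 41.8, 43.2 and 50.6 in mutant vehicle, 42.1, 37.5 and 44.1 in control THC and 45.6, 43.1 and 41.9 in control vehicle. Its highest value was in mutant vehicle 3 and its lowest in control THC 2. Cx3cr1, the fractalkine receptor, had 57, 58.4 and 59.4 CPM in mutant THC libraries 1 to 3, 60.9, 58.1 and 54.1 in mutant vehicle, 54.3, 52.4 and 59.9 in control THC and 68.7, 58.5 and 50.1 in control vehicle. Both ends of its range were control vehicle libraries. P2ry13, another ADP receptor, had 14.8, 13.8 and 15.1 CPM in mutant THC libraries 1 to 3, 15.8, 14.3 and 13.2 in mutant vehicle, 13.6, 12.6 and 13.9 in control THC and 14.2, 14.2 and 12.7 in control vehicle, with overlapping groups throughout. Gpr34, a receptor for lysophosphatidylserine, had 16.5, 15.1 and 15.1 CPM in mutant THC libraries 1 to 3, 13.8, 14.9 and 19.9 in mutant vehicle, 13.9, 12.3 and 13.6 in control THC and 16.9, 13.5 and 12.9 in control vehicle. The 3 mutant THC libraries lay above the 3 control THC libraries, but control vehicle 1 was higher than all of these. C3ar1, the receptor for complement fragment C3a, had 3.03, 2.96 and 2.4 CPM in mutant THC libraries 1 to 3, 3.02, 2.94 and 4.01 in mutant vehicle, 2.81, 2.31 and 2.27 in control THC and 2.53, 2.34 and 2.82 in control vehicle. Its counts were low, and mutant vehicle 3 was the single highest library. Cx3cr1 and P2ry12 had expected counts that were not whole in 11 and 7 of 12 libraries, because the counting shared ambiguous reads between genes.

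Csf1r, the receptor for the survival factors CSF1 and IL-34, had 119.9, 116 and 117 CPM in mutant THC libraries 1 to 3, 125, 113 and 115 in mutant vehicle, 109, 106 and 115 in control THC and 126, 114 and 102 in control vehicle. Control vehicle libraries alone covered its whole range. Sall1, a zinc-finger factor that maintains microglial identity, had 11.8, 10.7 and 12.7 CPM in mutant THC libraries 1 to 3, 11.4, 11.6 and 11.4 in mutant vehicle, 10.6, 11 and 11.8 in control THC and 11, 11.6 and 11.2 in control vehicle and was the member with the smallest ratio of highest to lowest library, at 1.21 times. Spi1, the gene of PU.1, had 2.1, 1.31 and 2.27 CPM in mutant THC libraries 1 to 3, 2.44, 2.19 and 2.49 in mutant vehicle, 1.95, 2.07 and 2.61 in control THC and 2.63, 2.23 and 2.07 in control vehicle. Its lowest library, mutant THC 2, made its ratio of 2.01 times the largest of all members, on counts of 46 to 100 per library. Irf8, an interferon regulatory factor that works with PU.1, had 4.18, 4.12 and 6.12 CPM in mutant THC libraries 1 to 3, 4.67, 5.16 and 4.44 in mutant vehicle, 3.79, 4.18 and 3.84 in control THC and 5, 5.35 and 5.25 in control vehicle. All control THC values lay below all control vehicle values, and mutant THC 3 was the highest library.

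Trem2, the lipid-sensing receptor, had 9.49, 9.92 and 10.7 CPM in mutant THC libraries 1 to 3, 10.4, 10.1 and 9.44 in mutant vehicle, 9.34, 8.48 and 8.8 in control THC and 11.3, 10.6 and 8.32 in control vehicle. Mutant THC lay above control THC in every library, while the vehicle groups overlapped because control vehicle 1 and 2 held the 2 highest control values. Tyrobp, its signalling adaptor, had 16, 14.6 and 16 CPM in mutant THC libraries 1 to 3, 15.9, 14.5 and 15.8 in mutant vehicle, 13.8, 13 and 12.7 in control THC and 16.5, 13.5 and 11.9 in control vehicle. As for Trem2, mutant THC lay above control THC in every library, and control vehicle 1 was the highest of all 12. Fcer1g, the adaptor of activating Fc receptors, had 4.84, 4.55 and 4.39 CPM in mutant THC libraries 1 to 3, 5.22, 3.67 and 4.34 in mutant vehicle, 3.93, 4.37 and 3.81 in control THC and 4.19, 4.03 and 4.08 in control vehicle. Siglech, a sialic acid-binding lectin used as a microglial marker in mice, had 15.6, 15.3 and 15.7 CPM in mutant THC libraries 1 to 3, 14.4, 13.8 and 13.6 in mutant vehicle, 14.7, 11.8 and 15.2 in control THC and 14.4, 12.1 and 11.8 in control vehicle. Its mutant THC values lay above those of each of the other groups. Cd33, an inhibitory lectin, had 3.09, 3.13 and 2.66 CPM in mutant THC libraries 1 to 3, 2.76, 3.54 and 2.44 in mutant vehicle, 2.31, 2.76 and 2.8 in control THC and 2.77, 2.98 and 2.33 in control vehicle, with overlapping groups. Inpp5d, which encodes the lipid phosphatase SHIP1 that restrains signalling below TREM2 and TYROBP, had 12.7, 14.5 and 14.9 CPM in mutant THC libraries 1 to 3, 15.6, 16.6 and 13.6 in mutant vehicle, 12.8, 13.2 and 14.1 in control THC and 17.5, 17.8 and 14.6 in control vehicle. All control THC values lay below all control vehicle values, and the mutant groups overlapped.

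The activating high-affinity receptor Fcgr1 had 3.63, 3.15 and 3.64 CPM in mutant THC libraries 1 to 3, 3.04, 3.75 and 4.16 in mutant vehicle, 3.29, 3.1 and 3.5 in control THC and 4.19, 3.01 and 2.87 in control vehicle. Fcgr3, another activating receptor for immunoglobulin G, had 15, 12.9 and 14.7 CPM in mutant THC libraries 1 to 3, 15.5, 13.2 and 14.1 in mutant vehicle, 12.7, 11.5 and 13 in control THC and 14.4, 12.8 and 12.8 in control vehicle. The inhibitory receptor Fcgr2b had 3, 2.64 and 2.38 CPM in mutant THC libraries 1 to 3, 2.7, 2.65 and 3.27 in mutant vehicle, 2.26, 2.19 and 3.11 in control THC and 2.42, 2.71 and 2.33 in control vehicle. Control and mutant values overlapped for all 3 Fc receptors. Fcgr2b and Fcgr3 share closely similar sequence and had fractional counts in 9 and 11 of 12 libraries, so the split between them is uncertain.

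Of the adhesion molecules, Itgam, the alpha chain of the complement receptor integrin known as CD11b, had 30.8, 27.9 and 31.7 CPM in mutant THC libraries 1 to 3, 30.5, 30.5 and 28.8 in mutant vehicle, 29.5, 27.6 and 30.5 in control THC and 31.5, 30.0 and 25.9 in control vehicle, with overlapping groups. Itgb2, the beta chain that pairs with it, had 6.43, 6 and 6.5 CPM in mutant THC libraries 1 to 3, 7.06, 6.83 and 6.06 in mutant vehicle, 5.94, 5.09 and 5.38 in control THC and 5.87, 4.59 and 4.73 in control vehicle. The lowest mutant value, 6.00 CPM, lay above the highest control value, 5.94 CPM. Selplg, the ligand of P-selectin, had 25.2, 22.9 and 26.2 CPM in mutant THC libraries 1 to 3, 25.2, 21.3 and 22.7 in mutant vehicle, 21.8, 20.7 and 23.2 in control THC and 24.7, 22.3 and 22.2 in control vehicle. Ptprc, the phosphatase CD45 found on blood-derived and resident immune cells, had 5.71, 4.18 and 5.16 CPM in mutant THC libraries 1 to 3, 5.83, 6.21 and 7.25 in mutant vehicle, 5.29, 4.73 and 4.51 in control THC and 6.34, 5.56 and 4.19 in control vehicle. Every mutant THC value lay below every mutant vehicle value. Cd53, a tetraspanin of immune cells, had 10.6, 8.87 and 11 CPM in mutant THC libraries 1 to 3, 8.85, 9.27 and 12.2 in mutant vehicle, 9.14, 7.85 and 7.99 in control THC and 9.4, 8.38 and 8.3 in control vehicle. Tmem119, a microglial membrane protein, had 25.2, 22.8 and 24.3 CPM in mutant THC libraries 1 to 3, 28.3, 24 and 24.2 in mutant vehicle, 27.1, 21.1 and 23.5 in control THC and 26.5, 22.9 and 20.8 in control vehicle, with overlapping groups. Ly86, a partner of the Toll-like receptor relative RP105, had 11.1, 10.9 and 11.7 CPM in mutant THC libraries 1 to 3, 10.3, 10.7 and 10.6 in mutant vehicle, 8.84, 9.25 and 10.2 in control THC and 10.7, 8.92 and 9.12 in control vehicle. Mutant THC lay above each of the other groups, and control vehicle 1 was the only control library within the range of mutant vehicle. Fcrls, an Fc receptor-like protein, had 32.2, 31 and 30.2 CPM in mutant THC libraries 1 to 3, 31.8, 29 and 27.4 in mutant vehicle, 27, 27.4 and 29.3 in control THC and 29.4, 29.4 and 25 in control vehicle. Mertk, a receptor tyrosine kinase for engulfment of dying cells that astrocytes also express, had 41.3, 36.8 and 35 CPM in mutant THC libraries 1 to 3, 40.2, 39 and 35 in mutant vehicle, 38.2, 35.1 and 35.8 in control THC and 40.6, 42.3 and 38.8 in control vehicle. Its control THC values lay below its control vehicle values. Slc2a5, a fructose transporter, had 5.59, 4.89 and 6.12 CPM in mutant THC libraries 1 to 3, 4.83, 5.02 and 5.33 in mutant vehicle, 4.38, 4.64 and 5.16 in control THC and 5.42, 5.78 and 5.09 in control vehicle, with overlapping groups.

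Among lysosomal and secreted proteins, Ctsz (chromosome 2, 174427494 to 174439039 in GRCm38.p6) had 40.4, 37.2 and 47.5 CPM in mutant THC libraries 1 to 3, 41.3, 44.4 and 45.3 in mutant vehicle, 32.7, 34.4 and 30.4 in control THC and 35.2, 31.7 and 29.8 in control vehicle. The lowest mutant library, mutant THC 2 at 37.2 CPM, lay above the highest control library, control vehicle 1 at 35.2 CPM. Ctss had 81.1, 71.2 and 83.1 CPM in mutant THC libraries 1 to 3, 75, 74.1 and 81.7 in mutant vehicle, 71.3, 65.3 and 65.5 in control THC and 80.7, 65.7 and 62.2 in control vehicle, and the genotypes overlapped. Laptm5, a lysosomal membrane protein of blood-lineage cells, had 22.1, 23.1 and 23.1 CPM in mutant THC libraries 1 to 3, 22, 20.3 and 20.1 in mutant vehicle, 21.3, 18.2 and 23.5 in control THC and 23.2, 18.4 and 18.3 in control vehicle. Olfml3, a secreted olfactomedin-like protein of microglia, had 26.2, 27.1 and 25 CPM in mutant THC libraries 1 to 3, 27.1, 23.6 and 23.6 in mutant vehicle, 22, 21.8 and 25.4 in control THC and 22.5, 21.2 and 20.6 in control vehicle. Control THC 3 was its highest control library and lay within the mutant range. Aif1, the calcium- and actin-binding protein IBA1 used to stain microglia, had 5.71, 4.38 and 5.45 CPM in mutant THC libraries 1 to 3, 5.43, 5.21 and 5.4 in mutant vehicle, 4.91, 4.01 and 4.49 in control THC and 5.55, 4.78 and 4.47 in control vehicle. Its lowest mutant library was mutant THC 2 and its highest control library control vehicle 1.

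**Figure D3:**
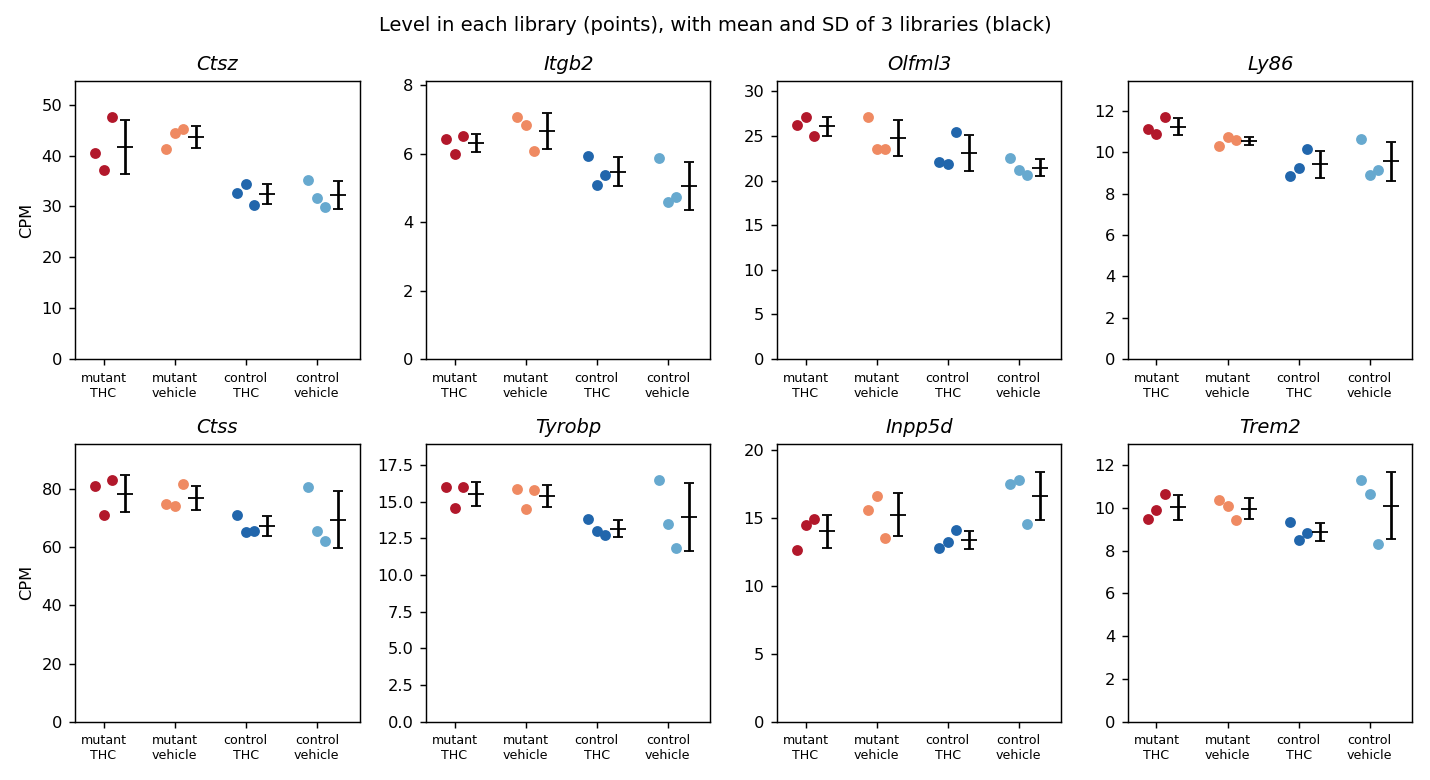
CPM of 8 microglial genes in each library (points) with the mean and SD of 3 libraries (black), by group, with each axis starting at 0. For Ctsz all 6 mutant points lie at or above 37.2 CPM and all 6 control points at or below 35.2 CPM, while for Trem2 and Inpp5d the genotypes overlap.

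Averaged over both treatments, 30 of 33 members had a log2 fold change above 0 in mutant relative to control libraries, with a median of 0.12 and a range of -0.09 to 0.40. Over all tested genes 8005 of 15802 lay above 0 and the median was 0.002. No member passed an adjusted p of 0.05, and 0.00633% of all genes did, which was 1 gene, Prm1. At an unadjusted p under 0.05, 9 of 33 members were higher in mutants and 0 lower, beside 12.2% of all genes higher and 9.01% lower. The 9 were Ctsz, Itgb2, Olfml3, Ly86, Ctss, Cd53, Tyrobp, C3ar1 and Fcgr3. Every mutant library lay above every control library for 2 of 33 members, Ctsz and Itgb2, beside 0.411% of all genes, and none lay below, beside 0.753% of all genes.

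Ctsz averaged 42.7 ± 3.75 CPM in mutant libraries and 32.4 ± 2.14 CPM in control libraries (SD, n = 6 each). This was a ratio of 1.32, or a log2 fold change of 0.40 ± 0.07 (SE) with a 95% interval of 0.25 to 0.55, and an adjusted p of 0.162 by the edgeR quasi-likelihood test. All further values given with ± for a comparison, without a unit, are log2 fold changes with their SE. Ctsz did not pass, although its unadjusted p of 9.18e-05 was the smallest among members. The edgeR adjusted p was 0.0384 without mutant THC 2, at a log2 fold change of 0.44, and DESeq2 on all 12 libraries gave 0.000409. Those fits called 942 and 785 genes in all, against 1 in the main fit. Mutant THC 2 was the only mutant library with a low choroid plexus sum, 338 CPM. Itgb2 averaged 6.48 ± 0.418 CPM in mutants and 5.27 ± 0.566 CPM in controls (SD, n = 6 each), with a log2 fold change of 0.30 ± 0.08 and an edgeR adjusted p of 0.162, against 0.0416 by DESeq2. Olfml3 differed by 0.19 ± 0.06, Ly86 by 0.20 ± 0.06 and Ctss by 0.18 ± 0.07 on the log2 scale (SE), with edgeR adjusted p-values of 0.162, 0.162 and 0.181. Over the 33 members the 95% intervals reached from -0.42 to 0.55, so that no average difference above 1.46-fold or below 0.749-fold lay within any of them.

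Beside these values, all 16 choroid plexus genes were higher in mutants at an unadjusted p under 0.05, with a median log2 fold change of 3.15 and 0 past the adjusted threshold. Ctsz in mutant THC 2, the mutant library with a choroid plexus sum of 338 CPM, was 37.2 CPM. This was the lowest mutant value and lay above every control library. In control THC 2, with a sum of 9015 CPM, Ctsz was 34.4 CPM. This was the highest control THC value and lay below control vehicle 1, at 35.2 CPM. Without control THC 2 and mutant THC 3 the log2 fold change of Ctsz was 0.37 and that of Itgb2 0.26, and 28 of 33 members lay above 0 with a median of 0.085. Oligodendrocyte genes were 8 of 8 higher at an unadjusted p under 0.05, with a median of 0.40, erythroid genes 4 of 5, with a median of 0.49, striatal neuron genes 10 of 11, with all 11 above 0 and a median of 2.29, monocyte and neutrophil genes 2 of 6, with all 6 above 0 and a median of 0.80, and the 10 hippocampal neuron genes had a median of -0.23 with 0 at that p. Of 11 tested genes of border-associated macrophages, 7 lay above 0, with a median of 0.12 and 1 at that p. The part of these lists in the values of the members was not tested.

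**Figure D4:**
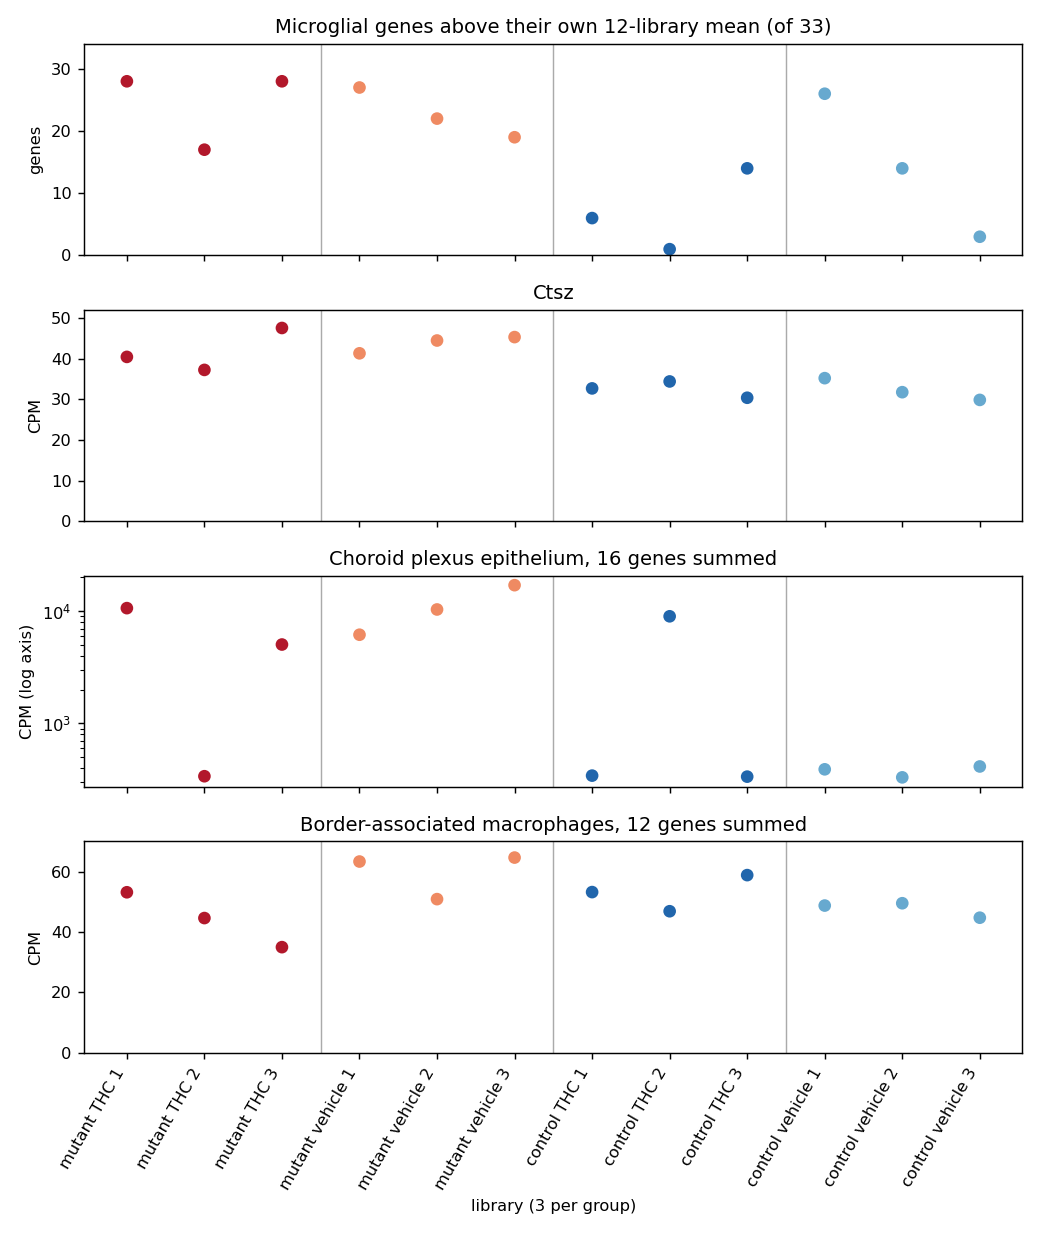
Number of microglial genes above their own mean (of 33), Ctsz in CPM, the sum of 16 choroid plexus genes in CPM on a log axis, and the sum of 12 genes of border-associated macrophages in CPM, each per library. Mutant THC 2 has a choroid plexus sum of 338 CPM and Ctsz at 37.2 CPM, the lowest mutant value. Control THC 2 has 9015 CPM and 34.4 CPM, the highest control THC value.

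**Figure D5:**
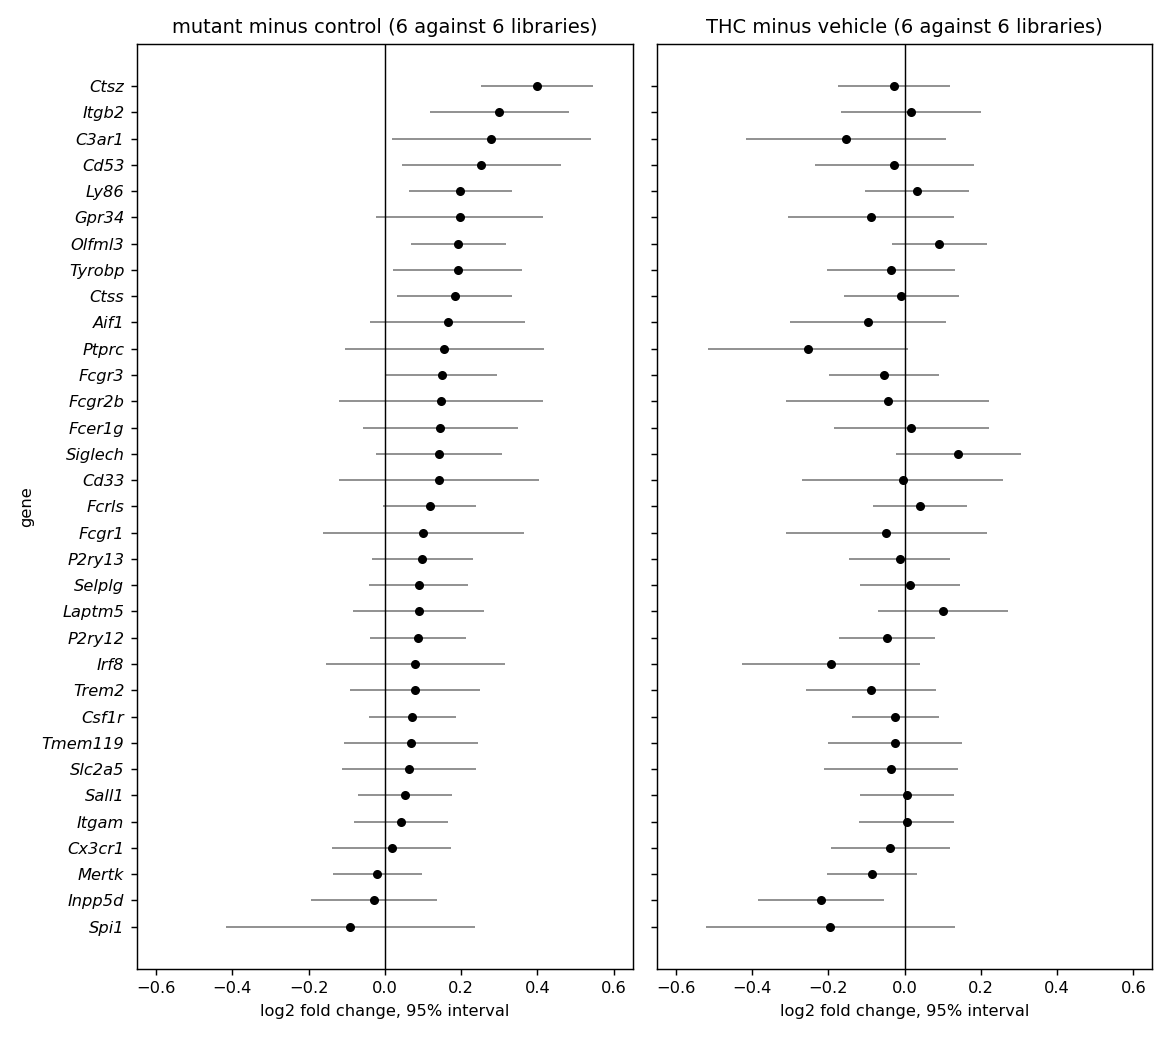
Log2 fold changes of 33 microglial genes with 95% intervals, for mutant minus control (left) and THC minus vehicle (right), each from 6 against 6 libraries, in the order of the left panel. On the left 30 of 33 points lie above 0, up to 0.40 for Ctsz, and on the right 10 of 33 do.

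Under vehicle, 26 of 33 members lay above 0 in mutant relative to control mice, with a median log2 fold change of 0.11. Over the fits that left out 1 library the median ran from 0.03, without control vehicle 3, to 0.16, without control vehicle 1, and it was also more than 1.5 times smaller without mutant vehicle 1. No member passed the adjusted threshold, beside 0.00633% of all genes, and at an unadjusted p under 0.05 the counts were 4 higher and 0 lower, beside 11.2% of all genes higher and 6.63% lower. Ctsz averaged 43.7 ± 2.1 CPM in mutant vehicle and 32.2 ± 2.71 CPM in control vehicle libraries (SD, n = 3 each), a log2 fold change of 0.44 ± 0.09 with an edgeR adjusted p of 0.156. That value was 0.00574 by DESeq2 and 0.028 when only these 2 groups entered the edgeR fit. Those fits called 788 and 523 genes in all, against 1 in the main fit. The other members by smallest p were Itgb2 at 0.39 ± 0.12, Olfml3 at 0.21 ± 0.08, C3ar1 at 0.38 ± 0.17 and Cd53 at 0.22 ± 0.13, and none passed, with edgeR adjusted p-values of 0.161, 0.221, 0.272 and 0.413. Without mutant vehicle 3, Cd53 was 0.06. Over the fits that left out 1 library, C3ar1 ran from 0.22 to 0.46, and mutant vehicle 3 was its highest library. All lysosomal and secreted members had values above 0, 4 of 4, with a median of 0.18, beside 48.95% of all tested genes above 0. Trem2 was -0.02 ± 0.11, Cx3cr1 -0.03 ± 0.10 and Csf1r 0.05 ± 0.07. All 11 tested genes of border-associated macrophages lay above 0 here, with a median of 0.545 and 4 at an unadjusted p under 0.05. All 16 choroid plexus genes were higher at that p, with a median of 5.17. Their sum was 6176 to 17080 CPM in mutant vehicle and 330 to 413 CPM in control vehicle libraries. All 8 oligodendrocyte genes lay above 0, with a median of 0.33 and 3 at that p. Of 10 hippocampal neuron genes 3 lay above 0, with a median of -0.07. The part of these lists in the values of the members, Ctsz, C3ar1 and Cd53 included, was not tested.

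Under THC, 32 of 33 members lay above 0 in mutant relative to control mice, with a median of 0.17, and the exception was Spi1 at -0.22 ± 0.21. No member passed, beside 0.00633% of all genes, and 4 were higher and 0 lower at an unadjusted p under 0.05, beside 4.71% of all genes higher and 4.27% lower. Ctsz averaged 41.7 ± 5.28 CPM in mutant THC and 32.5 ± 2.01 CPM in control THC libraries (SD, n = 3 each), at 0.36 ± 0.09 on the log2 scale. Ly86 was 0.26 ± 0.09, Ctss 0.22 ± 0.10, Olfml3 0.18 ± 0.08 and Tyrobp 0.24 ± 0.11. The edgeR adjusted p was 0.552 for all 5 of these genes. Without control THC 2 and mutant THC 3 the median was 0.098 and 29 of 33 members lay above 0, and Ctsz was 0.30. Of the border-associated macrophage genes, 2 of 11 lay above 0 here, with a median of -0.28. All 8 oligodendrocyte genes were higher at an unadjusted p under 0.05, with a median of 0.51. So were all 11 striatal neuron genes, with a median of 3.76. All 16 choroid plexus genes lay above 0, with a median of 0.83 and 0 at that p. Of 10 hippocampal neuron genes, 1 lay above 0 and 3 were lower at that p, with a median of -0.45. The part of these lists in the values of the members was not tested.

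In control mice, 8 of 33 members lay above 0 after THC relative to vehicle, with a median log2 fold change of -0.05. No member passed, beside 0% of all genes, and 0 were higher and 2 lower at an unadjusted p under 0.05, beside 3.55% of all genes higher and 3.45% lower. Inpp5d averaged 13.4 ± 0.669 CPM in control THC and 16.6 ± 1.79 CPM in control vehicle libraries (SD, n = 3 each), at -0.32 ± 0.11 on the log2 scale. Irf8 averaged 3.94 ± 0.212 CPM in control THC and 5.2 ± 0.177 CPM in control vehicle libraries, at -0.40 ± 0.15. Mertk was -0.16 ± 0.08, Slc2a5 -0.20 ± 0.11 and Trem2 -0.18 ± 0.11. The edgeR adjusted p was 0.700 for Inpp5d and Irf8, 0.718 for Mertk, 0.745 for Slc2a5 and 0.751 for Trem2. All 4 members around the CSF1 receptor and its transcription factors and all 5 nucleotide and chemokine receptors had values below 0, with medians of -0.06 and -0.08. Of all tested genes, 7878 of 15802 lay below 0. Control vehicle 1 was the control library with most members above their mean, and over the fits that left out 1 library the median ran from -0.10, without control vehicle 3, to 0.001 with 18 of 33 above 0, without control vehicle 1.

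In mutant mice, 19 of 33 members lay above 0 after THC relative to vehicle, with a median of 0.01. The median ran from -0.03, without mutant THC 3, to 0.05, without mutant THC 2, and its sign changed with the library left out. No member passed, beside 0% of all genes, and 0 members were higher or lower at an unadjusted p under 0.05, beside 2.53% of all genes higher and 3.2% lower. Ptprc averaged 5.02 ± 0.775 CPM in mutant THC and 6.43 ± 0.738 CPM in mutant vehicle libraries (SD, n = 3 each), at -0.36 ± 0.17 on the log2 scale. Spi1 was -0.32 ± 0.21, C3ar1 -0.25 ± 0.17, Siglech 0.16 ± 0.11 and Selplg 0.10 ± 0.08. None passed, and the edgeR adjusted p was 0.806 for Ptprc, 0.815 for Spi1 and 0.846 for Selplg. Border-associated macrophages share Ptprc and C3ar1 with microglia, and all 11 tested genes of their list lay below 0 here, with a median of -0.61 and 3 at an unadjusted p under 0.05. The summed level of 12 such genes was 35.0 to 53.1 CPM in mutant THC and 50.9 to 64.6 CPM in mutant vehicle libraries, with no gene at 0 in all libraries. Their part in the values of Ptprc and C3ar1 was not tested.

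Averaged over genotypes, 10 of 33 members lay above 0 after THC, with a median of -0.03. Without control vehicle 1 the median was 0.007 and 20 of 33 lay above 0. No member passed, beside 0% of all genes, and 0 were higher and 1 lower at an unadjusted p under 0.05, beside 2.96% of all genes higher and 3.09% lower. The 1 was Inpp5d, with 13.7 ± 0.944 CPM in THC and 15.9 ± 1.69 CPM in vehicle libraries (SD, n = 6 each), a log2 fold change of -0.22 ± 0.07 and an edgeR adjusted p of 0.786. Ptprc was -0.25 ± 0.12, Siglech 0.14 ± 0.07, Irf8 -0.19 ± 0.11 and Mertk -0.09 ± 0.05. Over all members the 95% intervals ran from -0.52 to 0.31, or from 0.697-fold to 1.24-fold. For Csf1r the interval was -0.14 to 0.09, for Cx3cr1 -0.19 to 0.12, for P2ry12 -0.17 to 0.08, for Tmem119 -0.20 to 0.15 and for Trem2 -0.26 to 0.08 on the log2 scale.

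The interaction asks whether THC acted differently in mutant than in control mice. Of the members, 24 of 33 had an interaction above 0, with a median of 0.06 on the log2 scale, none passed, beside 0% of all genes, and 0 reached an unadjusted p under 0.05 in either direction, beside 2.16% of all genes higher and 4.42% lower. Without control vehicle 1 the median was -0.02 and 16 of 33 lay above 0, and the highest median, 0.12, came without control vehicle 3. The members with the smallest p were Slc2a5 at 0.33 ± 0.16, Irf8 at 0.42 ± 0.21, Selplg at 0.18 ± 0.12, Mertk at 0.14 ± 0.11 and Inpp5d at 0.19 ± 0.15. The edgeR adjusted p was 0.756 for Slc2a5 and 0.762 for Irf8. Over all members the 95% intervals of the interaction ran from -0.91 to 0.88, or from 0.532-fold to 1.845-fold.

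Mutant mice given THC against control mice given vehicle combined both factors. Of the members 26 of 33 lay above 0, with a median of 0.09 that ran from 0.04 without control vehicle 3 to 0.16 without control vehicle 1, none passed, beside 0.00633% of all genes, and 5 were higher and 1 lower at an unadjusted p under 0.05, beside 7.13% of all genes higher and 7% lower. Ctsz was 0.37 ± 0.09, Olfml3 0.28 ± 0.08, Itgb2 0.32 ± 0.12, Siglech 0.28 ± 0.11 and Ly86 0.23 ± 0.09 on the log2 scale. Inpp5d was -0.25 ± 0.11, the 1 member lower at that p. The edgeR adjusted p was 0.301 for Ctsz, against 0.0414 by DESeq2, and 0.31 for Olfml3. DESeq2 called 167 genes in all here, against 1 in the main fit. This comparison shares its libraries with the others, and its values are given side by side with theirs.

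Further lists of related genes were read beside the members, and none had a gene past the adjusted threshold in the average over treatments. In that average 12.2% of all tested genes were higher and 9.01% lower at an unadjusted p under 0.05. These shares stand beside the counts at that p in every list below. Of 25 tested genes of other homeostatic microglial functions, 20 lay above 0 in mutants, with a median of 0.09 and 3 at an unadjusted p under 0.05. Lgmn, the lysosomal protease legumain, had 139.5, 111 and 132 CPM in mutant THC libraries 1 to 3, 133, 134 and 145 in mutant vehicle, 116, 119.6 and 101 in control THC and 126, 117 and 117 in control vehicle, at 0.19 ± 0.06 on the log2 scale. Of 15 genes of TREM2 and TYROBP signalling, 9 lay above 0, with a median of 0.07 and 0 at that p. Of 18 tested genes that disease-associated microglia raise in mouse models of neurodegeneration, 13 lay above 0, with a median of 0.10 and 2 at that p, Cd9 at 0.50 ± 0.12 and Cd63 at 0.59 ± 0.17, both of which other brain cells also express. Under vehicle 17 of these 18 lay above 0 with a median of 0.45, and under THC 8 of 18 with a median of -0.005. Cd9 and Cd63 had their lowest mutant values in mutant THC 2, at 51.0 and 22.85 CPM. The highest control value of Cd63, 31.2 CPM, was in control THC 2, and that of Cd9, 57.1 CPM, in control vehicle 1.

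Of 25 general lysosomal genes, which every cell type expresses, 19 lay above 0 in mutants, with a median of 0.11, and 10 were higher at an unadjusted p under 0.05 and 0 lower. Ctsd, the aspartic protease cathepsin D, had 572, 388 and 464 CPM in mutant THC libraries 1 to 3, 499, 551 and 641 in mutant vehicle, 377, 449.9 and 374 in control THC and 409, 390.1 and 371 in control vehicle, at 0.39 ± 0.10. Lamp2, a lysosomal membrane protein, had 144, 87.1 and 108 CPM in mutant THC libraries 1 to 3, 116, 142 and 169.9 in mutant vehicle, 92.5, 103 and 85.8 in control THC and 95.3, 82.8 and 89.3 in control vehicle, at 0.47 ± 0.12. Npc2, which hands cholesterol out of the lysosome, was 0.45 ± 0.11. The edgeR adjusted p was 0.162 for each of Ctsd, Lamp2 and Npc2. For Ctsd, Lamp2 and Npc2 the control library with a high choroid plexus sum, control THC 2, had the highest control value (69.7 CPM for Npc2). Mutant THC 2, with a low sum, had their lowest mutant value (58.8 CPM for Npc2). The same held for mutant THC 2 in Ctsz, whose highest control library was control vehicle 1.

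Of 12 genes of survival and restraint signals to microglia, 7 lay above 0 in mutants, with a median of 0.02, and 2 were higher and 2 lower at an unadjusted p under 0.05. Cd200, a neuronal surface protein that restrains microglia, was -0.30 ± 0.10, and Sirpa, a receptor for the signal CD47, was -0.12 ± 0.05. Gas6, a ligand of MERTK, was 0.44 ± 0.19. Its highest control value, 127.8 CPM, was in control THC 2, the control library with a high choroid plexus sum. Its lowest mutant value, 72.4 CPM, was in mutant THC 2, with a low sum. Cx3cl1, the ligand of CX3CR1, had 334, 444 and 492 CPM in mutant THC libraries 1 to 3, 359.9, 373 and 304 in mutant vehicle, 397, 406 and 384 in control THC and 379, 436 and 415 in control vehicle. Il34, a ligand of the CSF1 receptor, had 25.3, 24 and 34.1 CPM in mutant THC libraries 1 to 3, 26.6, 22 and 23.6 in mutant vehicle, 29.2, 26.6 and 26.8 in control THC and 26.9, 25.9 and 29.5 in control vehicle. For both ligands mutant THC 3, the library with the high striatal sum, was the highest of the 12.

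Markers of white blood cells were low, while those of red cells were not. The summed level of 12 monocyte and neutrophil genes was 1.93 to 5.47 CPM in mutant THC, 2.54 to 4.75 in mutant vehicle, 1.83 to 3.20 in control THC and 1.29 to 2.37 CPM in control vehicle libraries, with no gene at 0 in all libraries. The 10 lymphocyte genes summed to 30.95 CPM in mutant THC 3, of which Cd4 gave 30.3 CPM. They summed to 4.31 CPM in mutant vehicle 3, of which Cd4 gave 3.58 CPM, and to at most 1.02 CPM elsewhere. The T-cell genes Cd3e and Cd3d were at 0.026 CPM in mutant THC 3, and Cd3g and Cd8a at 0. Mutant THC 3 and mutant vehicle 3 were also the libraries with the highest striatal sums, 5394 and 659 CPM. The 5 erythroid genes summed to 538 to 689 CPM in mutant THC, 469.5 to 829 in mutant vehicle, 395 to 602 in control THC and 323 to 455 CPM in control vehicle libraries. The part of these cells in the members' values was not tested.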

How the data were processed

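Expected counts of genes were deposited by the authors as a single unscaled table of 23382 rows, with 12 columns that matched the 12 samples with 0 left over. Per the submitters' processing notes the build was mm10 and the tools were RSEM 1.2.21, Bowtie2 2.2.2, CASAVA 1.8.4, FastQC and edgeR 3.10.2. Whether counting used strand is not stated in the labels. RSEM shares ambiguous reads, and 27.2% to 29.4% of values per library were not whole, so genes with near-identical copies or overlapping neighbours are uncertain. Rows carry RefSeq accessions, of which 23011 were named by the RefSeq annotation of GRCm38.p6 and 129 by GENCODE. Another 7 held several symbols, and 235, with 0.73% of all counts, had no symbol. Titles gave the genotype of the control libraries. The lowest chi-square per gene over 66 pairs of libraries was 11.2, so no library was a repeat of another.

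Expected counts were rounded, filtered with filterByExpr (15802 genes) and scaled with TMM (factors 0.99 to 1.01). Testing used edgeR 4.0.16 in R 4.3.3, by robust quasi-likelihood F tests with 12 libraries, 4 group means and 8 residual degrees of freedom. P-values were adjusted by Benjamini-Hochberg over all 15802 genes, with 0.05 as the threshold. Standard errors and 95% intervals come from the F statistic. The code was tested on simulated data. Levels per length used mean annotated transcript lengths.

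In each of 8 comparisons the text names members past the threshold and, if under 3 passed, the 5 of smallest p. Other genes of the lists were named among the 3 with the smallest p in their list, and Cx3cl1 and Il34 as ligands. Some genes of the lists are not reported here. The members and lists were chosen with earlier results of these data known. Alternatives were DESeq2 1.42.0, limma-voom (limma 3.58.1), other scaling, no filter, no robust estimation, only the groups compared, each library left out, and control THC 2 with mutant THC 3 left out. Precision follows the counts, which were lowest for Spi1 at 46 to 100 per library.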

Additional observations from a re-analysis of the deposited data

How the results depend on the processing

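All 264 levels under other scalings moved by less than the spread between replicates. With TMM factors of 0.99 to 1.01, plain library totals could hardly move them. Of 745 log2 fold changes of named members under the alternatives, 739 kept their direction and their side of the threshold, and 0 reversed. These members were picked for their small p in the same data, and none passed in the main fit. A kept direction and side were therefore likely beforehand. The 6 other fold changes passed the threshold only under the alternative. They were Ctsz under vehicle by DESeq2 and with only the 2 groups fitted, Ctsz and Itgb2 averaged over treatments by DESeq2, Ctsz averaged over treatments without mutant THC 2, and Ctsz in mutant THC against control vehicle by DESeq2. Every median of the members moved by less than the spread between replicates (0.085), but with 1 library left out its sign turned for THC in controls, in mutants and averaged, and for the interaction. In these comparisons the median itself was smaller in size than that spread.

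Counts of all genes called by DESeq2 were 12 for THC in controls, 3 for THC in mutants, 788 for the mutation under vehicle, 7 for the mutation under THC, 34 for the interaction, 3 for THC averaged, 785 for the mutation averaged and 167 for mutant THC against control vehicle. Of these, 1, 2 and 1 were members, under vehicle, averaged and in the last comparison. With only the 2 groups fitted the counts were 523 genes and 1 member for the mutation under vehicle, and 0 genes under THC and for mutant THC against control vehicle. Limma-voom called 0 genes in these 3 comparisons. Without control THC 2 and mutant THC 3 the counts were 1 for THC in controls, 1 for THC averaged, and 0 for the mutation under vehicle, under THC and for mutant THC against control vehicle.

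With each library left out in turn, genes called ranged from 0 to 3 for THC in mutants, 0 to 6 for the mutation under vehicle, 0 to 2 under THC, 0 to 10 for the interaction and 0 to 1 for mutant THC against control vehicle. For the mutation averaged they ranged from 1 to 942 genes and 0 to 1 members, with the highest counts without mutant THC 2. The cause of these differences was not tested. No paired analysis was possible because the label numbers do not recur between groups. Depth limits Spi1 most, with 46 to 100 counts a library.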
